A study of Mus musculus with 5 samples.

Results

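The loci described here are antisense long non-coding RNA (lncRNA) loci of the mouse testis, each assembled on the strand opposite to a named gene. They were chosen from the authors' lncRNA table as the gene IDs whose transcripts all carried the type antisense lncRNA and all carried the flag NovelLncRNA, with counts summed over the transcripts of a locus. The rule gave 2806 of 16356 loci (17.2%), with 5175 of the 33057 transcripts in the table. They are called antisense loci below, and each is named after its partner, the gene it overlaps. The table also held 8272 intergenic loci with the same flag and 1241 other antisense loci.

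An antisense lncRNA is copied from the strand opposite to another gene, so the RNA of both can pair, share a start region or be transcribed through one another. The testis is known for transcribing much more of the genome than other tissues, above all in spermatocytes and round spermatids, and many lncRNAs are germ cell RNAs. Triptolide, a diterpenoid of the thunder god vine, binds the XPB subunit of the general factor TFIIH and blocks transcription initiation, and it is known for lowering male fertility.

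Testis RNA came from male mice of strain C57/BL6J, 10 weeks old, which carried no allele named in the labels. The triptolide group received 50 µg per kg body weight per day into the stomach and the control group received saline, with 6 mice in each group and tissue taken at 35 days. Ribosomal RNA was removed and strand-marking libraries were read in pairs, giving 2 control and 3 triptolide libraries. The labels do not say which mouse or pool each library came from, so the p-values rest on spread among libraries that may be technical. The lncRNA table numbers the controls 1 and 2 and heads 2 triptolide columns with the same name, so these are called triptolide A and B beside triptolide 3. The sources used here do not state whether strand was used in counting. Without strand, the RNA of a locus and of its partner cannot be told apart where their exons overlap. In bulk tissue, fewer cells of a type and less RNA per cell cannot be told apart either.

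The lncRNA counts summed to 947287 to 1070998 per library. Levels are given as CPM, the rounded count of a locus scaled to the lncRNA total of that library. Fragment length, estimated from the authors' mRNA counts and FPKM, was 289.0 and 277.6 bases in the controls and 257.3, 264.2 and 258.3 bases in the triptolide libraries, so it moved with the groups (exact two-sided permutation p = 0.1, which no split of 2 against 3 can go below). Its part in the results was not tested. The tissue label could be checked only on circular RNAs, because the mRNA values used here carry no gene names. A circular RNA was seen in all 5 libraries for 20 of 93 axoneme genes and 7 of 27 piRNA pathway genes, both active in germ cells. Among other germ cell lists it was seen for 5 of 48 meiotic, 4 of 36 round spermatid, 1 of 39 elongating spermatid, 1 of 20 spermatogonial and 0 of 40 sperm energy genes. It was seen in all libraries for 0 genes of the Leydig, Sertoli, peritubular, immune, endothelial and epididymal lists. Lists of general cell function gave 15 of 72 centrosome and cilium genes, 6 of 53 ubiquitin genes and 5 of 53 transcription initiation genes. Heat shock and apoptosis lists gave 2 of 44 and 1 of 35. The germ cell shares were therefore not set apart from these lists.

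Of the antisense loci named by rule, 4 lay across the start of their partner, at Rnf39, Rtn3, Smcp and Asns. The sequences of the loci themselves were not read here. The 250 bases before the RefSeq start of each of these partners (GRCm38.p6) are shown. The antisense locus starts downstream of that start, and its span on the genome reaches into or covers this window. Exon positions were not read, so the window may lie in an intron of the antisense RNA. Each is written 5′ to 3′ along the partner, with matches to the searched motifs in capitals on either strand.
Rnf39 (chr17:36942801-36943050, plus strand): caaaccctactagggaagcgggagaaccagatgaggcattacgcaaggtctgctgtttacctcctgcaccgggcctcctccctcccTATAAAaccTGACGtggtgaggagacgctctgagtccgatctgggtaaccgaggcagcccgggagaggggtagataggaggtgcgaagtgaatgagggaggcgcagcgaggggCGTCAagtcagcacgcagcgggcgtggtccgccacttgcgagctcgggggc
Rtn3 (chr19:7483292-7483541, minus strand): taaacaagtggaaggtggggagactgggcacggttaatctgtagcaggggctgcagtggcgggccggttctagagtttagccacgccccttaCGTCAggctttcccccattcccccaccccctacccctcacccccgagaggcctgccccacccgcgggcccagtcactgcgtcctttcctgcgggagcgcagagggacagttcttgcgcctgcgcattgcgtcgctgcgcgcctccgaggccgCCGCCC
Smcp (chr3:92589074-92589323, minus strand): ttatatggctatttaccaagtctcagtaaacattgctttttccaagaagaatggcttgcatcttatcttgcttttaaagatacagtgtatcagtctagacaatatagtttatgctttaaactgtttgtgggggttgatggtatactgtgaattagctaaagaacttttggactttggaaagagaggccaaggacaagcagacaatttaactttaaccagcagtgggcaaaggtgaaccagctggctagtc
Asns (chr6:7693210-7693459, minus strand): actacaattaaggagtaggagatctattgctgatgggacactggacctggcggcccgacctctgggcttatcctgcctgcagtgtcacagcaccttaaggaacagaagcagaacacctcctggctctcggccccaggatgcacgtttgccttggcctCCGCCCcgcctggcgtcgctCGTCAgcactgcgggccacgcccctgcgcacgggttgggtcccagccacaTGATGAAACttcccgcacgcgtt

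The motifs searched on both strands were the CRE core TGACG, the GC box GGGCGG, the CCAAT box CCAAT, the TATA box TATAAA, the full CRE TGACGTCA, which contains the core, and the amino acid response composite TGATGAAAC. Among 32536 windows of 250 bases before RefSeq starts, the CRE core occurred in 17.9%, the GC box in 33.0%, the CCAAT box in 33.8%, the TATA box in 12.3%, the full CRE in 1.6% and the composite in 0.2%. The Rnf39 window held 2 core matches and a TATAAA match at -164, counted from the base before the start. The Rtn3 window held 1 core match and a GC box match. In the Asns window, a composite match stood at -23, beside 1 core match and 1 GC box. The Smcp window held no match and 0 CpG at 38.0% GC, whereas the windows at Rnf39, Rtn3 and Asns held 18, 20 and 16 CpG at 62.4, 67.2 and 61.6% GC. The median window of the table had 6 CpG and 52.4% GC. A match is a description of letters and not a binding site.

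The antisense loci mostly had few transcripts. In all, 1769 of them (63.0%) had 1 transcript, and the locus with most had 23. Of their transcripts, 42.7% had 2 exons, against 39.0% of the other transcripts in the table, and none had fewer. Their median span on the genome was 7558 bases, with 10th and 90th percentiles of 1641 and 39969 bases. The median was 8727 bases for the other antisense loci and 5148 bases for the intergenic loci with the same flag. The plus strand carried 1440 and the minus strand 1366. By chromosome, their share of all lncRNA loci was largest on chromosome 7, at 23.7%, and smallest on chromosomes Y and 13, at 0.7 and 12.3%.

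Most partners were protein-coding genes. A single partner symbol was given for 2737 loci, naming 2543 different genes, and 175 of these genes had 2 or more antisense loci, with a maximum of 4 at Gm17019, Camta1 and Tenm2. RefSeq (GRCm38.p6) held the partner of 2574 loci by symbol, and 2403 of these partners (93.4%) were protein-coding, 97 were pseudogenes and 22 were lncRNA genes. The coordinates overlapped those of the RefSeq partner in 2530 cases (98.3%). All 1884 loci whose partner had a strand in that table lay on the opposite strand, which is what the type asks for.

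Against the partner, 952 of 1851 loci with a placed overlap (51.4%) lay inside the gene, 464 (25.1%) crossed its start, 358 (19.3%) crossed its end and 77 (4.2%) spanned it. The antisense start lay within 1000 bases of the partner's start at 381 of 1884 loci (20.2%). Where RefSeq lists several starts for a partner, distances here and below are to the nearest. Of these, 310 started downstream of it, inside the partner, and 71 upstream. Within 250 bases there were 192 (10.2%). An RNA of the opposite strand that starts upstream of the partner's start runs away from the gene, so the antisense type itself favours starts inside the partner.

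**Figure D1:**
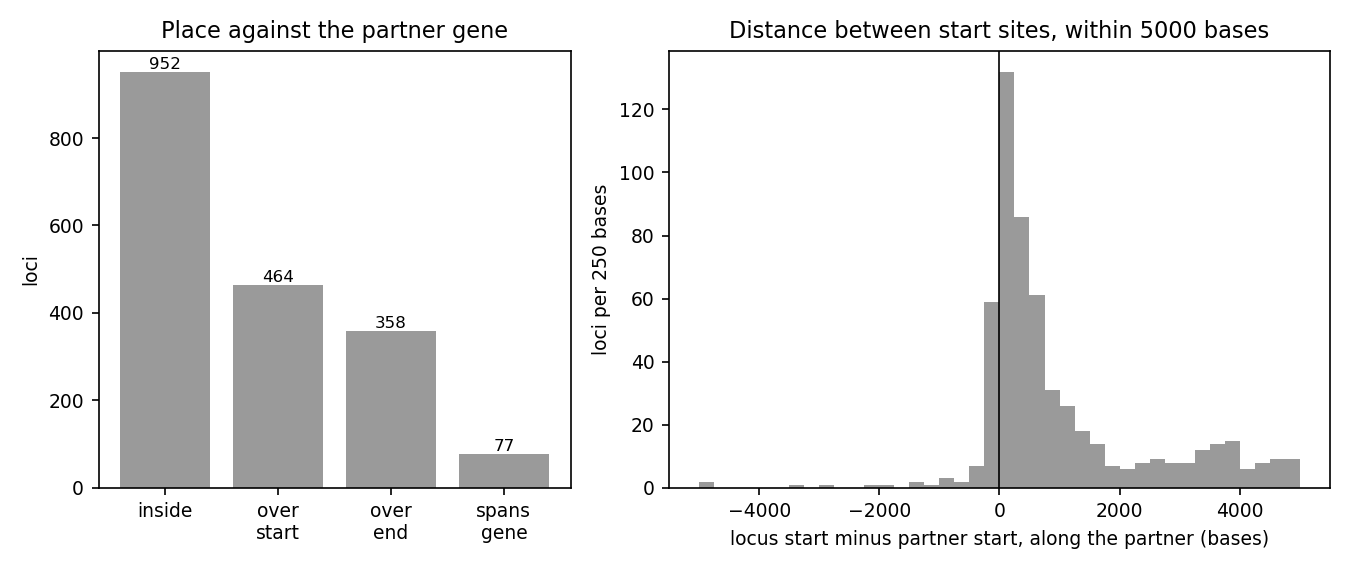
Left, number of antisense loci by their place against the RefSeq partner gene (bars from 0). Right, distance of the antisense start from the nearest RefSeq start of the partner in bases, in steps of 250 bases, over the plotted range. Positive values lie downstream of that start. Most near starts lie just downstream of the partner's start: 310 of the 381 within 1000 bases.

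The antisense loci took 15.9 and 16.8% of the lncRNA counts in the controls and 17.3, 16.7 and 16.4% in the triptolide libraries. The means were 16.35% ± 0.64 (SD, n = 2) and 16.8% ± 0.46 (SD, n = 3), a difference within the spread between libraries (exact two-sided permutation p = 0.5, smallest possible 0.1). At least 1 count was found for 2280 and 2241 loci in the controls and for 2241, 2281 and 2266 in the triptolide libraries (exact permutation p = 0.8). The groups overlapped in both measures. Without the 10 loci with the most counts the share was 12.7% in both controls and 13.0 to 13.2% in the triptolide libraries, which did not overlap (exact permutation p = 0.1, the smallest possible).

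Levels were spread widely. Averaged over the libraries, 16 loci had at least 1000 CPM and 324 at least 100 CPM, 2035 had 1 to 100 CPM and 447 were under 1 CPM. The 10 largest took 21.9% of the counts of all 2806. Per length, the median in the controls was 22.3 FPKM. It was 19.8 FPKM for the intergenic loci with the same flag and 1.17 FPKM for the other antisense loci. These medians cover all loci of each class. In the same order, 53.9, 39.6 and 34.2% of the loci had enough counts to be tested between the groups. The median level was 9.31, 4.43 and 1.17 CPM over all loci, but 35.1, 29.3 and 59.2 CPM over the tested loci. Among tested loci, the other antisense loci thus stood highest of these classes in CPM. The part of the class definitions in these differences was not tested. Transcript lengths were not compared between these classes, and short transcripts can have inflated FPKM.

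The 8 loci with the highest mean level included none called between the groups. The locus in Filip1l, which codes for a filamin A interacting protein, had 3420 and 9740 CPM in the controls and 14600, 6890 and 4320 CPM in the triptolide libraries. Its groups overlapped, and libraries of the same group differed more than the groups did: the log2 fold change was 0.38 ± 0.32 (SE; edgeR adjusted p = 0.54). Without control 2, with the single control left assumed to vary like the triptolide libraries, it was 1.37 (edgeR adjusted p = 8.7e-09), whereas without control 1 it was -0.20 (adjusted p = 0.66) and without triptolide A it was -0.26 (adjusted p = 0.68). Both transcripts of the locus ranked the 5 libraries in the same order. This locus was also the highest per length of the 8, at 25900 and 67100 FPKM in the controls. Kcnk10, with 7220 and 9548 counts against 3299 and 10431 here, had 300 and 357 FPKM. FPKM can be inflated where a transcript is little longer than the fragments, so this level per length is uncertain.

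At Kcnk10, a gene for a background potassium channel, the antisense level was 7480 and 8920 CPM in the controls and 7220, 6620 and 7950 CPM in the triptolide libraries (log2 fold change -0.17 ± 0.16, SE; edgeR adjusted p = 0.57). The locus at Zmynd11, which codes for a chromatin reader, had 3260 and 3170 CPM against 3060, 3420 and 3150 CPM, with a log2 fold change of 0.00 ± 0.16 (SE; edgeR adjusted p = 1). Both groups overlapped at these loci. At Rpsa, the gene of a ribosomal protein with many processed copies, the libraries had 4160 and 4580 CPM in the controls and 3350, 3510 and 3350 CPM with triptolide. Reads of this locus may be shared with those copies, so its level is uncertain. The groups did not overlap, but the log2 fold change of -0.36 ± 0.16 (SE) missed the threshold (edgeR adjusted p = 0.17).

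The locus at Gm42811 had 2170 and 2310 CPM in the controls and 3200, 2840 and 3380 CPM in the triptolide libraries, again without overlap. Its log2 fold change was 0.49 ± 0.17 (SE; edgeR adjusted p = 0.067), and it passed with DESeq2 (adjusted p = 0.015) and without triptolide B (edgeR adjusted p = 0.021). The antisense loci at Slf2, Stox1 and Alx1 had log2 fold changes of 0.18, -0.36 and -0.28 with edgeR adjusted p of 0.59, 0.25 and 0.33. None of the 8 most abundant antisense loci passed with edgeR on all 5 libraries.

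**Figure D2:**
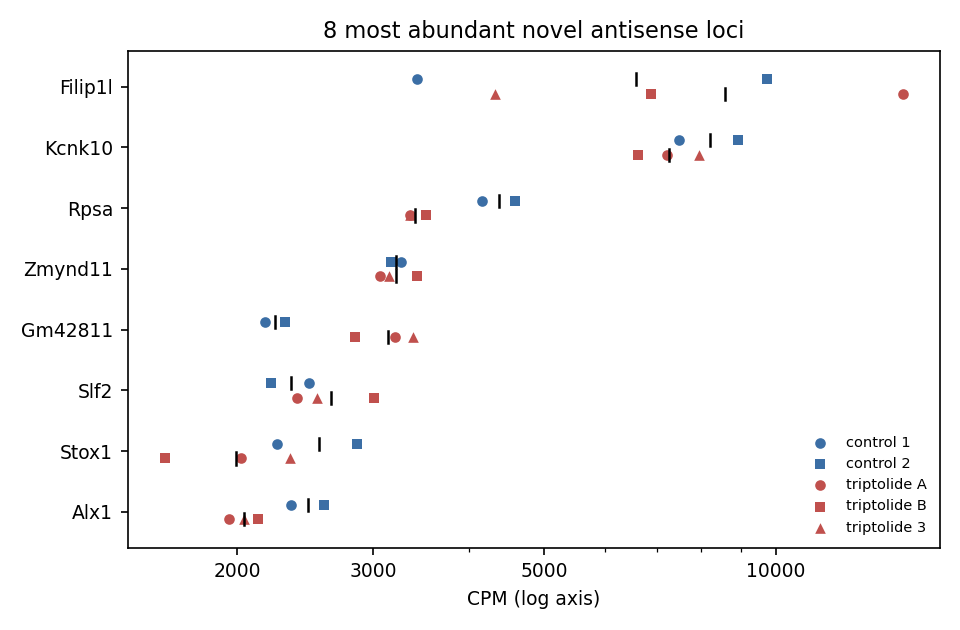
CPM (log axis) of the 8 antisense loci with the highest mean level, named by partner; blue symbols are the controls, red symbols the triptolide libraries and black bars the group means. Filip1l ranges from 3420 to 14600 CPM with both groups mixed, and Zmynd11 from 3060 to 3420 CPM.

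Fewer than 1 in 10 of the antisense loci tested differed between triptolide and control, and most that did were higher with triptolide. Enough counts for the test were found at 1512 antisense loci, and 1294 were not tested, 23 of them without a count in any library. With edgeR, 96 passed an adjusted p of 0.05 (6.35%), against 7.27% of all 6888 loci tested. Of these, 72 rose and 24 fell, where all loci tested gave 5.01% higher and 2.26% lower. The share of antisense loci called was thus near the background. At an unadjusted p under 0.05 there were 306 (20.2%), against 21.7% of all loci.

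Among the 72 loci that rose, the median log2 fold change was 1.32, with a range of 0.60 to 4.04 where the controls had any count. Among the 24 that fell it was -1.02, with a range of -3.20 to -0.66. The median over all antisense loci tested was 0.05, and over all loci tested 0.00. The libraries of the groups did not overlap at any of the 96, nor at 566 of the 1512 tested (37.4%, against 38.1% of all loci tested). Leaving out 1 library changed these counts by over 1.5 times: 46 rose and 12 fell without control 1, 45 and 10 without triptolide A, and 43 and 14 without triptolide 3. DESeq2 called 45 higher and 7 lower. An adjusted p was given for 1198 antisense loci with DESeq2, 1449 without triptolide A and 1440 without triptolide 3. The share of all loci called in these settings is not given here. Whether the drops are particular to the antisense loci was not tested. In all 11 alternatives that test whole loci, 29 of the 72 and 3 of the 24 passed. Where a control was left out, the control group was 1 library, assumed to vary like the triptolide libraries. When single transcripts were tested with edgeR, 0 of 13536 passed (0%), and 238 of the 2592 transcripts of the antisense loci had an unadjusted p under 0.05. With DESeq2 on single transcripts, 33 antisense loci had a higher transcript and 7 a lower one. The shares over all transcripts for the unadjusted count and for DESeq2 are not given here. These 2 results are therefore not read as particular to the antisense loci.

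**Figure D3:**
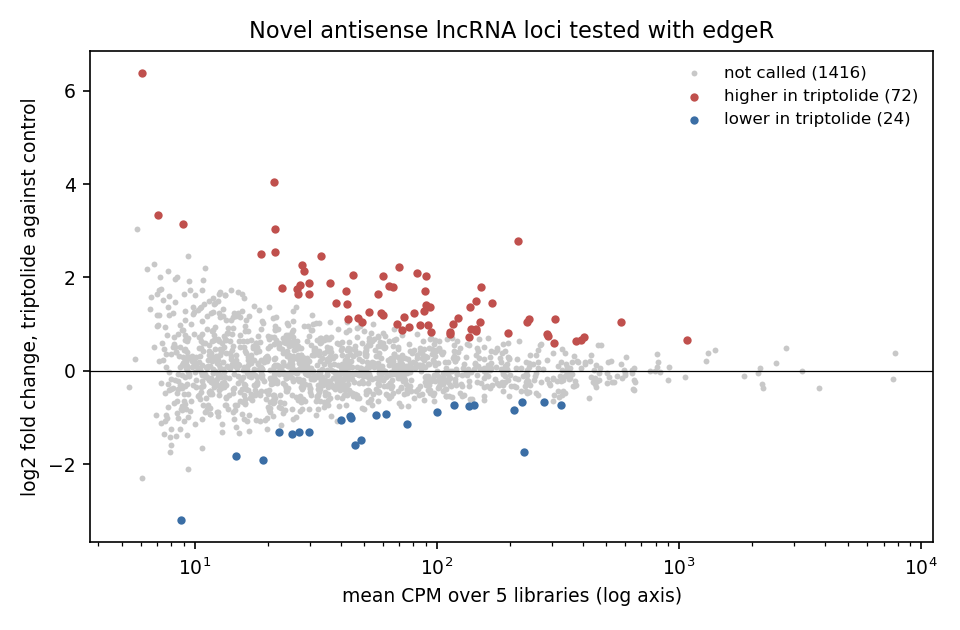
Log2 fold change (triptolide against control) of the 1512 tested antisense loci against their mean CPM over 5 libraries (log axis); red points passed as higher (72), blue points as lower (24) and grey points did not pass. The called loci lie mainly between 10 and 1000 CPM, and the point above 6 is the Tmem191c locus, which had no count in either control.

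The largest rise among loci of at least 20 CPM was at Rnf39, a RING finger gene of the major histocompatibility region. This antisense locus (XLOC_088671, chr17:36942953-36947107, minus strand, 3 exons) crosses the Rnf39 start and ends inside the window printed above. It had 2.07 and 1.87 CPM in the controls, 2 counts in each, and 26.4, 35.0 and 40.8 CPM in the triptolide libraries. All triptolide libraries stood above both controls, and the log2 fold change was 4.04 ± 0.59 (SE; edgeR adjusted p = 3.5e-05).

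The firmest rise was at 4930533L02Rik (chr7:125306594-125320287, minus strand), with 45.6 and 50.4 CPM in the controls and 289, 274 and 421 CPM in the triptolide libraries. The groups lay far apart, with a log2 fold change of 2.77 ± 0.25 (SE; edgeR adjusted p = 3.8e-08). Of its 5 transcripts, the longest in span carried most counts in every library.

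Bcl2l1 codes for the anti-apoptotic protein Bcl-xL, and the antisense locus inside it (chr2:152781719-152790168, plus strand) had 5.18 and 5.60 CPM against 43.3, 25.5 and 27.2 CPM. Its log2 fold change was 2.54 ± 0.50 (SE; edgeR adjusted p = 0.0016). Rtn3 codes for a reticulon of the endoplasmic reticulum. Its antisense locus (chr19:7483155-7485158, plus strand) starts 136 bases inside the gene and spans the whole window printed above. It had 3.11 and 6.54 CPM in the controls and 28.5, 18.9 and 36.9 CPM with triptolide (log2 fold change 2.49 ± 0.54, SE; edgeR adjusted p = 0.0038). Fbxl20 codes for an F-box subunit of a ubiquitin ligase. The locus inside it had 11.4 and 6.54 CPM against 51.7, 40.6 and 56.3 CPM (log2 fold change 2.47 ± 0.40, SE; edgeR adjusted p = 0.00021).

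Ccer1 codes for a coiled-coil protein of spermatids, and its antisense locus had 25.9 and 29.9 CPM in the controls and 124, 85.0 and 151 CPM with triptolide (log2 fold change 2.10 ± 0.30, SE; edgeR adjusted p = 3e-05). The loci at Gm11212, 1810043G02Rik and 9530077C05Rik completed the 10 largest rises together with 1 inside Mink1. Their log2 fold changes were 3.03, 2.27, 2.23 and 2.13. Each of these 10 loci passed in all 11 alternatives that test whole loci, and none had a transcript that passed when single transcripts were tested with edgeR. For a locus with 1 transcript, such as that at Rnf39, both tests used the same counts. Its unadjusted edgeR p was 1.3e-07 as a locus and 0.00036 as a transcript. The transcript result is therefore no separate evidence on such loci.

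Both antisense loci inside Mink1, the gene of a Ste20 family kinase, were higher with triptolide. The first (XLOC_032121) had 6.22 and 12.1 CPM in the controls and 33.8, 35.9 and 53.4 CPM in the triptolide libraries (edgeR adjusted p = 0.0017). The neighbour (XLOC_032119), 668 bases away on the same strand, had 2.07 and 18.7 CPM against 42.2, 31.2 and 41.8 CPM, with a log2 fold change of 1.83 ± 0.48 (SE; edgeR adjusted p = 0.016). It did not pass with DESeq2 (adjusted p = 0.11), without control 1 (edgeR adjusted p = 0.25) or without triptolide 3 (edgeR adjusted p = 0.089). The gap is short enough that a single RNA split in assembly cannot be told apart from 2 loci.

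Since 72 of the 96 called loci rose, a shared direction within a few pairs is not set apart from that share. Among the called loci, 3 pairs lay within 100000 bases of each other, and in each both loci rose. Beside the Mink1 pair these were the loci at Gm11631 and Fbxl20, 24634 bases apart on opposite strands, and those at Rnf39 and Zfp57, 47175 bases apart on the same strand. Zfp57 codes for a zinc finger protein that keeps genomic imprints, and its antisense locus had 76.7 and 62.6 CPM in the controls and 203, 126 and 258 CPM with triptolide (log2 fold change 1.50 ± 0.27, SE; edgeR adjusted p = 0.00059). At Gm11631 the values were 62.2 and 60.7 CPM against 241, 167 and 232 CPM (log2 fold change 1.80 ± 0.24, SE; edgeR adjusted p = 1.2e-05). The loci at Zfp57 and Gm11631 passed in all 11 alternatives, and both were named after their values were seen. Of 55 partners with 2 or more tested loci, 6 had 1 called locus and 1, Mink1, had 2.

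The firmest fall was at Topaz1, a germ cell gene needed for male meiosis. Its antisense locus (XLOC_196314, chr9:122779737-122799515, minus strand, 2 exons) lies inside the gene and had 341 and 446 CPM in the controls and 114, 118 and 120 CPM in the triptolide libraries. The groups lay well apart and the triptolide libraries were nearly equal, with a log2 fold change of -1.74 ± 0.20 (SE; edgeR adjusted p = 7.4e-07). Leaving out each library in turn gave -1.94 to -1.50, with edgeR adjusted p of at most 0.00012.

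The loci inside Jakmip3, whose product binds Janus kinases and microtubules, and inside Fntb, the gene of the farnesyltransferase beta subunit, also fell in all 11 alternatives. At Jakmip3 the values were 87.1 and 66.3 CPM in the controls and 32.7, 28.3 and 15.5 CPM with triptolide (log2 fold change -1.58 ± 0.32, SE; edgeR adjusted p = 0.0017). At Fntb they were 86.0 and 72.8 CPM against 27.4, 29.3 and 28.2 CPM (log2 fold change -1.48 ± 0.29, SE; edgeR adjusted p = 0.0013). The triptolide libraries were all below both controls at each locus.

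At the other large falls described here the call was lost when at least 1 library was left out. At Itpr2, the gene of an inositol trisphosphate receptor, the locus had 127 and 97.1 CPM against 50.7, 47.2 and 54.4 CPM (log2 fold change -1.14 ± 0.25, SE; edgeR adjusted p = 0.0039), and did not pass without control 1 (edgeR adjusted p = 0.08). The locus at Gm22108 had 45.6 and 23.3 CPM against 12.7, 6.61 and 7.77 CPM (edgeR adjusted p = 0.0077, and 0.28 without control 1; DESeq2 adjusted p = 0.085). At Gria4, the gene of a glutamate receptor subunit, the values were 26.9 and 25.2 CPM against 8.45, 9.45 and 3.89 CPM (edgeR adjusted p = 0.023), and the call was lost without control 1 (0.13), control 2 (0.091) or triptolide 3 (0.087) and with DESeq2 (0.16). The loci at Lama2, a laminin gene, and Fmn2, a formin gene, had log2 fold changes of -1.36 and -1.31. Lama2 did not pass without control 1 (edgeR adjusted p = 0.18), triptolide A (0.089) or triptolide B (0.055), nor did Fmn2 without the same libraries (0.16, 0.10 and 0.088). With DESeq2 their adjusted p were 0.18 and 0.21.

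At Pde4dip, the gene of a centrosome and Golgi protein, the controls differed from each other, at 29.0 and 63.5 CPM, and the triptolide libraries had 12.7, 20.8 and 22.3 CPM. Its log2 fold change was -1.32 (edgeR adjusted p = 0.026) and -0.59 without control 2 (adjusted p = 0.57); it also missed the threshold without triptolide A (0.12), B (0.054) or 3 (0.059), with DESeq2 (0.21) and with limma (0.054).

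**Figure D4:**
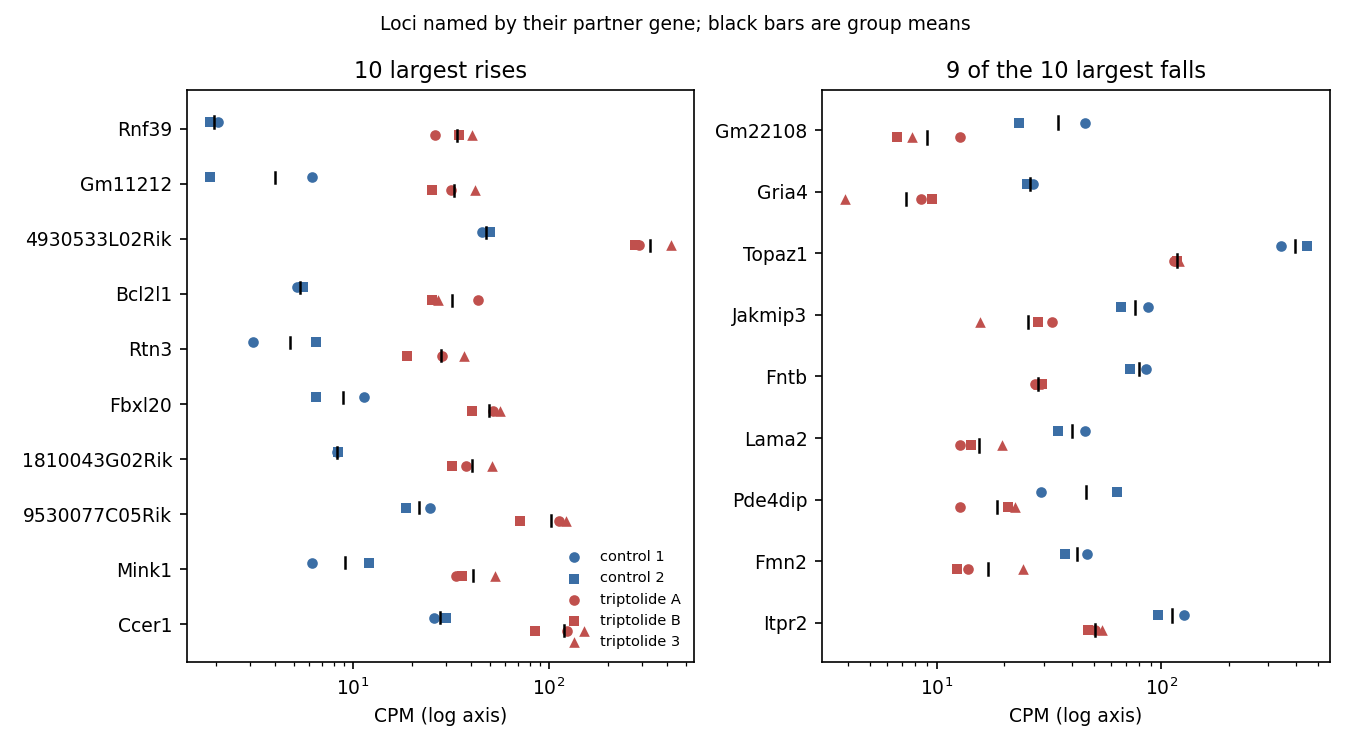
CPM (log axis) in each library for the 10 largest rises (left) and 9 of the 10 largest falls (right) among called antisense loci of at least 20 CPM, named by partner; blue symbols are the controls, red symbols the triptolide libraries and black bars the group means. In every row the triptolide libraries lie on 1 side of both controls, as the rule for these loci required.

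Below 20 CPM in both groups, 4 loci were called, and all were named after their values were seen. The locus in Tmem191c had 0 counts in both controls and 6, 14 and 11 counts with triptolide. Set against 3 counts over both controls, its mean level with triptolide was 6.85-fold higher, a figure that leaves out the spread among the triptolide libraries. It passed with edgeR on all 5 libraries (adjusted p = 0.011). No adjusted p was given with DESeq2, with a mean count of at least 10, or without triptolide B or triptolide 3. It did not pass without control 1 (edgeR adjusted p = 0.11) or control 2 (0.085), or with limma (adjusted p = 0.064). The locus in Inpp5f, the gene of a phosphoinositide phosphatase, had 1 count in each control and 6, 12 and 16 with triptolide (edgeR adjusted p = 0.036, 0.20 without control 1 and 0.17 without control 2; limma adjusted p = 0.089). At Sult6b2, a sulfotransferase gene, there were 0 and 3 counts against 17, 15 and 10 (edgeR adjusted p = 0.029, and 0.24 without control 1 and 0.075 without triptolide A). The locus in A1cf, the gene of an RNA editing cofactor, fell from 15 and 24 counts to 1, 3 and 2 counts (edgeR adjusted p = 0.0061, and 0.18 without control 2).

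Calls were spread over all placements. Of 313 tested loci across a partner's start, 12 rose and 4 fell (5.11% called, beside 7.27% of all loci tested). Of 192 across its end, 11 rose and 1 fell (6.25%), of 462 inside it 21 rose and 13 fell (7.36%), and of 45 that spanned it 3 rose and 1 fell (8.89%). Where the antisense start lay within 1000 bases of the partner's start, 9 of 264 rose and 3 fell (4.55% called), against 38 and 16 of 763 farther away (7.08%). These differences were not tested. Calls were more frequent at higher levels: over 4 classes of rising level with 378 antisense loci each, 1.32, 4.76, 8.2 and 11.1% of the antisense loci were called, against 2.89, 5.71, 8.62 and 11.2% of all loci in the same ranges of CPM. Loci with 1 transcript had a median log2 fold change of 0.13 (627 tested), and those with 4 or more had -0.05 (265 tested).

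Among the 130 tested loci that start within 250 bases of a partner's start, 5 rose and 1, at Asns, fell (4.62% called, against 7.27% of all loci tested). The locus at BC048671 begins 66 bases inside that gene and had 10.4 and 30.8 CPM in the controls and 99.2, 77.5 and 81.6 CPM with triptolide (log2 fold change 2.03 ± 0.35, SE; edgeR adjusted p = 0.00037, passing in all 11 alternatives). At Tex33, a testis-expressed gene, the start lies 60 bases downstream of the nearest RefSeq start. That is not the outermost start, because the whole locus lies inside the gene. The Tex33 locus had 57.0 and 31.7 CPM against 131, 90.7 and 90.3 CPM (log2 fold change 1.24 ± 0.29, SE; edgeR adjusted p = 0.0062). Its call was lost without control 2 (edgeR adjusted p = 0.099) or triptolide A (0.065). Spint2 codes for a protease inhibitor, and the locus 240 bases inside it had 46.6 and 38.3 CPM against 73.9, 66.1 and 116 CPM (edgeR adjusted p = 0.029), a call lost without control 1 (0.056), control 2 (0.12) or triptolide 3 (0.18) and with DESeq2 (0.14). These 3 loci were named after their values were seen.

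Partners in germ cell and stress gene lists were looked up next. The 19 lists hold 715 genes, and 73 tested antisense loci had a partner in a list, of which 6 were called (8.22%, against 7.27% of all loci tested). With 14 or fewer tested loci in each list, a single call in a list is not set apart from that share. In the meiotic prophase list, 0 of 6 tested loci rose and 1 fell, at Topaz1. The loci at Sycp1 and Sycp2, genes of the synaptonemal complex, and at Rec8, a meiotic cohesin gene, had log2 fold changes of -0.44, -0.08 and -0.46 (edgeR adjusted p = 0.36, 0.90 and 0.70). The 2 loci at Tex14, the gene of a germ cell bridge protein, had log2 fold changes of 1.56 and -0.30 (edgeR adjusted p = 0.14 and 0.56). The median of the list was -0.37, beside 0.00 over all loci tested. In the spermatogonial list the 1 tested locus, at Taf4b, had a log2 fold change of -0.33 (edgeR adjusted p = 0.32).

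In the round spermatid list 1 of 6 tested loci rose and 0 fell, and the median was 0.04; the rise was at Ccer1. In the elongating spermatid list 1 of 5 rose, at Smcp, which codes for a cysteine-rich protein of the sperm mitochondrial capsule, and the median was 0.52. The Smcp locus (chr3:92587926-92591212, plus strand) starts 1147 bases inside the gene and spans the window without CpG shown above. It had 13.5 and 8.40 CPM in the controls and 23.2, 34.0 and 53.4 CPM with triptolide, all above the controls (log2 fold change 1.76 ± 0.43, SE; edgeR adjusted p = 0.010). The call was lost with DESeq2 (adjusted p = 0.085), without control 2 (edgeR adjusted p = 0.058) and without triptolide 3 (0.11).

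In the axoneme and flagellum list 1 of 14 tested loci rose, and the median was 0.25. It lay in Hydin, the gene of a protein of the central pair of microtubules, where the libraries had 268 and 314 CPM against 531, 557 and 360 CPM (log2 fold change 0.73 ± 0.20, SE; edgeR adjusted p = 0.024). Without control 1 the adjusted p was 0.18, without triptolide A 0.14 and without triptolide B 0.051. The loci at the axonemal genes Dnah8 and Cfap100 had log2 fold changes of 0.83 and 0.49 (edgeR adjusted p = 0.14 and 0.17), and those at Cfap44 and Dnah7b had -0.50 and -0.43 (edgeR adjusted p = 0.31 and 0.62). No locus passed among 2 tested for the piRNA pathway, 1 for sperm ion channels and motility, 8 for centrosome and cilium assembly and 7 for the energy metabolism of sperm. Their medians were 1.13, -0.50, 0.09 and -0.24.

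Among stress genes, Asns codes for asparagine synthetase, an enzyme of the amino acid response. Its antisense locus (chr6:7692989-7698314, plus strand) starts 220 bases inside the gene and spans the window with the composite match. It had 66.3 and 57.9 CPM in the controls and 36.9, 35.0 and 23.3 CPM with triptolide, all below the controls (log2 fold change -0.97 ± 0.30, SE; edgeR adjusted p = 0.048). It passed in 3 of 11 alternatives, and the adjusted p was 0.063 to 0.20 without any 1 of the 5 libraries. This was the 1 call among 6 tested loci of the heat shock and stress list. At Srxn1, an antioxidant gene, the log2 fold change was 0.82 (edgeR adjusted p = 0.075). The 2 loci at Cdkn1a, the p53 target, had log2 fold changes of 0.12 and 0.31 (edgeR adjusted p = 0.84 and 0.85), and with the rise at Bcl2l1 they made up the 3 tested loci of the apoptosis list.

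For somatic cells, 4 loci had partners in the Leydig cell list and 0 of 4 passed. The locus at Star, the gene of the cholesterol carrier of steroid synthesis, had 52.9 and 57.9 CPM in the controls and 33.8, 36.8 and 42.7 CPM with triptolide, without overlap (log2 fold change -0.55 ± 0.29, SE; edgeR adjusted p = 0.28). The 1 tested locus of the Sertoli cell list, at Tjp1, had a log2 fold change of 0.06 (edgeR adjusted p = 0.89). The peritubular, immune and endothelial lists had 3 loci each, none with enough counts. Among genes of transcription initiation, the loci at Taf7 and Gtf2f2 had log2 fold changes of -0.94 and -0.06 (edgeR adjusted p = 0.27 and 0.97). In the ubiquitin list 0 of 6 tested loci passed, as did 0 of 2 in the list of transcription initiation and 0 of 2 in the list of epididymis and fat.

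The circular RNA table gave another readout at the partner genes. Of 11957 circular RNAs, 2346 came from a partner of an antisense locus, and 643 of 2661 partner symbols (24.2%) were hosts. On log2(SRPBM + 16), 0 of 1125 tested circular RNAs of partners passed with limma, as did 0 of 5457 over the whole table (0%). At an unadjusted p under 0.05 there were 83 (7.38%), against 6.6% of all. Some circular RNAs of partners passed when either control was left out, in fits where 1 control library is left and the spread comes from the triptolide libraries. The share over the whole table in those fits is not given here, so these calls are not read as a result about the partners. The triptolide columns of this table cannot be matched to those of the lncRNA table, so values are given by group.

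The most abundant circular RNA of Topaz1 was listed at 0 and 132 SRPBM in the controls and 86, 124 and 69 SRPBM with triptolide, with a log2 fold change of 1.13 ± 0.88 (SE; limma adjusted p = 0.73). That of Hydin, which hosts 19, was listed at 0 and 546 SRPBM in the controls and 392, 690 and 304 SRPBM with triptolide (limma adjusted p = 0.68). In both cases control 1 was listed at 0. Control 2 lay within the range of the triptolide libraries at Hydin and above it at Topaz1. At 9530077C05Rik, the most abundant of 3 had 35 and 24 SRPBM in the controls and was listed at 0 in the triptolide libraries (limma adjusted p = 0.68), where the antisense locus rose. At Fmn2 the values were 96 and 91 against 143, 97 and 104 SRPBM (limma adjusted p = 0.98). No circular RNA was listed for the other partners of the 10 largest rises.

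**Figure D5:**
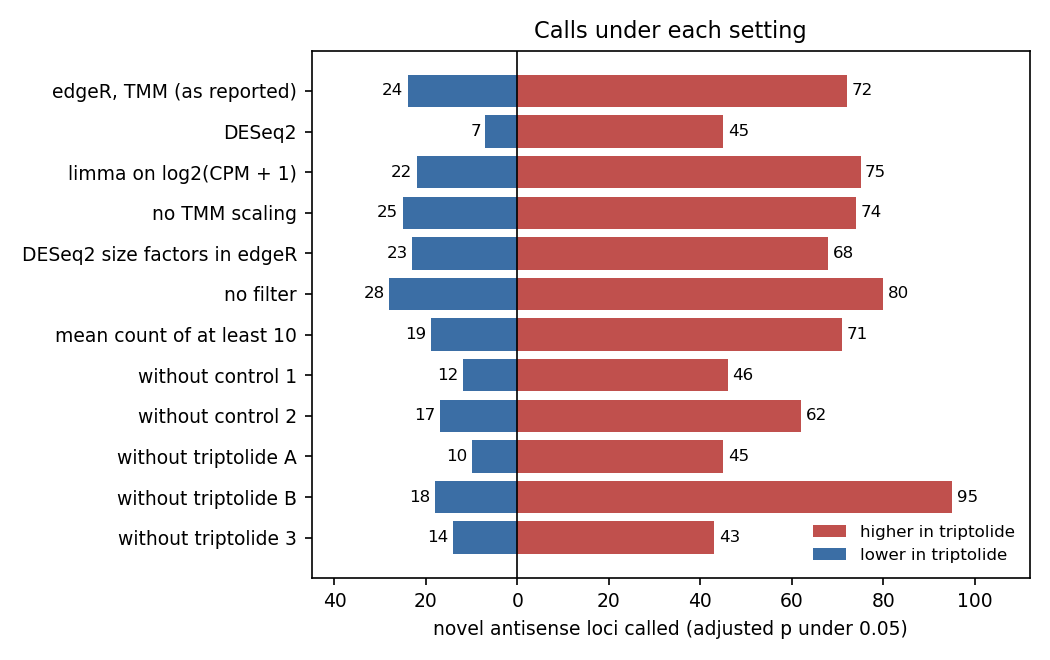
Number of antisense loci called higher (red, to the right) and lower (blue, to the left) at an adjusted p under 0.05 under each setting; bars start at 0. Higher calls run from 43 without triptolide 3 to 95 without triptolide B and lower calls from 7 with DESeq2 to 28 without a filter; higher calls outnumber lower calls in each of these settings.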

How the data were processed

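RNA of 2 control and 3 triptolide testis libraries was analysed. Expected counts per lncRNA transcript were made by the authors, as deposited in their lncRNA table. FPKM were also computed by the authors and deposited beside the counts, and those of the controls served for levels per length. Circular RNA values were deposited by the authors as SRPBM, by its usual meaning a score of junction reads scaled to mapped reads. HISAT2 2.0.1, HTSeq 0.6.1, DESeq and bedtools 2.17.0 are named in the submitters' processing notes, which give a human build, although the coordinates match mouse genes. The way the loci were assembled and the use of strand in counting are not given in the sources used here. The 3 FPKM columns of the triptolide libraries were not used, since they could not all be assigned.

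Counts were summed per locus and rounded. All 16356 loci entered edgeR 4.0.16 (R 4.3.3; filterByExpr, TMM, quasi-likelihood F test), and p-values were adjusted by Benjamini-Hochberg over the 6888 loci tested, with a threshold of 0.05. SE was taken from the fold change and F. On simulated data for these 6888 loci, 177 of 200 loci changed 4-fold were recovered, with 8 false calls. The simulated spread was set the same for every locus, so these figures do not measure the error rate of the calls here. For circular RNAs seen in 2 or more libraries, limma 3.58.1 was run on log2(SRPBM + 16). Single values per library were compared by exact permutation over 10 assignments. Alternatives were DESeq2 1.42.0, limma on log2(CPM + 1), no TMM, DESeq2 size factors, no filter, a mean count of at least 10, single transcripts and leaving out each library.

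Named loci were called loci without overlap and with at least 20 CPM in the higher group (the 10 largest rises and falls), the 8 most abundant, called loci with a partner in a list, and loci sharing a called partner. One locus that meets the rule is not reported here. Members and lists were chosen with earlier results of these data known. Promoter windows came from RefSeq (GRCm38.p6), and partners were matched by symbol. At this depth 1294 antisense loci had too few counts to test.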

Additional observations from a re-analysis of the deposited data

How the results depend on the processing

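Loci called higher and lower with triptolide numbered 72 and 24. DESeq2 gave 45 and 7, single transcripts gave 0 and 0 with edgeR and 33 and 7 with DESeq2, the last chosen after seeing the data. Leaving out 1 library gave 43 to 95 higher and 10 to 18 lower: 46 and 12 without control 1, 45 and 10 without triptolide A, 43 and 14 without triptolide 3. The other settings stayed within 1.5 times (68 to 80 higher, 19 to 28 lower), and the cause of the drops was not tested. Without control 1, 40 of the 46 higher loci were also among the 72; with DESeq2, 44 of 45 were. The Filip1l locus had a log2 fold change of 0.38, which changed sign without control 1 (-0.20) and without triptolide A (-0.26) and was 1.37 and called without control 2. The difference in the number of loci detected changed sign at a limit of 5 counts (-3.00), without control 2 (-17.33) and without triptolide B (-7.00), and left-out libraries gave -17.33 to 21.67. The difference in the share of counts stayed between 0.00 and 0.90 percentage points when a library was left out. Circular RNAs of partners called numbered 0, but 29 without control 2 and 1 without control 1, a range of 0 to 29. Fits that leave out 1 control take the spread from the triptolide libraries. No paired analysis was possible because the columns carry fewer than 2 replicate numbers shared by the groups. Low counts limit loci under 20 CPM most.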
